A study of Homo sapiens with 4 samples.

Results

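The 9 genes described here belong to the NRF2 and glutathione defence against oxidants. NFE2L2 encodes the transcription factor NRF2, KEAP1 its inhibitor, GCLC and GCLM the subunits of the enzyme that starts glutathione synthesis, and GPX4, TXNRD1, SRXN1, NQO1 and HMOX1 enzymes of peroxide, thiol, quinone and haem metabolism. They were chosen by name and matched by symbol. All 9 were found, once each, among the 60675 genes of the deposited tables, and all 9 were among the 16538 genes that passed the filter on low counts. RNA sequencing had been done in MM134, a lobular breast cancer line that expresses the estrogen receptor. Its HER2, a receptor tyrosine kinase, was either wild type (HER2 WT) or the kinase domain mutant HER2 L755S. Cells of both kinds were kept for 7 days without estrogen, in phenol red free medium with 5% charcoal-stripped serum, after reaching 70% confluence in full serum. Each line had 2 libraries, numbered 1 and 2, and pairs of values below are in that order. How HER2 was altered, whether a line was 1 clone and whether its libraries were separate cultures are not stated. The p-values therefore reflect the spread of these libraries alone, which could be technical.

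In unstressed cells KEAP1 holds NRF2 in the cytoplasm and directs its degradation. When reactive cysteines of KEAP1 are modified by oxidants or electrophiles, NRF2 accumulates, pairs with small MAF proteins and binds antioxidant response elements near genes for glutathione synthesis, the thioredoxin system, NADPH supply and quinone reduction. GPX4 acts beside this system: it uses glutathione to reduce lipid peroxides in membranes, and its loss permits ferroptosis, a form of cell death driven by lipid peroxidation.

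Libraries held 27423247 to 31088422 expected counts each. Mitochondrial transcripts took 4.03% to 4.40% of the counts in the number 1 libraries, 8.83% in HER2 WT 2 and 13.5% in HER2 L755S 2, and the part of this difference in the results below was not tested. The summed level of 9 luminal epithelial markers was 8105 to 8977 TPM (the authors' level per transcript length) in HER2 WT and 6515 to 8322 TPM in HER2 L755S libraries. Of these 9, 0 were called by edgeR and 2 had an unadjusted p under 0.05. The estrogen receptor gene ESR1 measured 176 and 282 CPM in the wild-type libraries 1 and 2, against 64.7 and 122 CPM in the L755S libraries (log2 -1.29, edgeR, adjusted p = 0.15), and XBP1 had a log2 fold change of 0.64 (adjusted p = 0.45). The 12 leukocyte markers stayed under 1 TPM each, with sums of 0.720 to 1.65 and 0.0200 to 0.760 TPM in the lines, and 5 of them had no counts. Of 11 fibroblast and endothelial markers, 10 stayed under 1 TPM and the other was COL1A1, with sums of 19.1 to 32.9 and 14.9 to 37.7 TPM, and 2 had no counts.

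The comparison of the lines asked which genes differ between HER2 WT and HER2 L755S cells once estrogen is withdrawn. The fitted levels of the 9 genes in HER2 L755S cells ran from 0.761 (HMOX1) to 1.78 (NQO1) times those in HER2 WT cells, and larger differences were found in single genes around them. The interval of NQO1 was 1.07 to 2.95 times (95%), and it did not pass the test across all genes. Outside the 9, the steroid reductase gene AKR1C1 and the cystine transporter gene SLC7A11 rose in HER2 L755S cells, and PIR, which encodes the iron-binding protein pirin, fell. By the quasi-likelihood test of edgeR with Benjamini-Hochberg adjustment, 0 of the 9 genes were called at an adjusted p under 0.05, against 1.69% of all tested genes. At an unadjusted p under 0.05 the count was 1 of 9 (NQO1), against 10.5% of all tested genes. DESeq2 and limma-voom also called 0 of the 9, and the lowest adjusted p of the 9 in the edgeR test was 0.36. An edgeR fit with the library number as a block called 1 of the 9, NQO1 (adjusted p = 0.013). That fit called 1743 of the 16538 tested genes, against 279 without the block. With 2 libraries a line the intervals were wide, and over the 9 genes they ran from 0.368 to 2.95 times the HER2 WT level. They come from the fit without the block, in which differences between library numbers common to both lines count as spread.

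**Figure D1:**
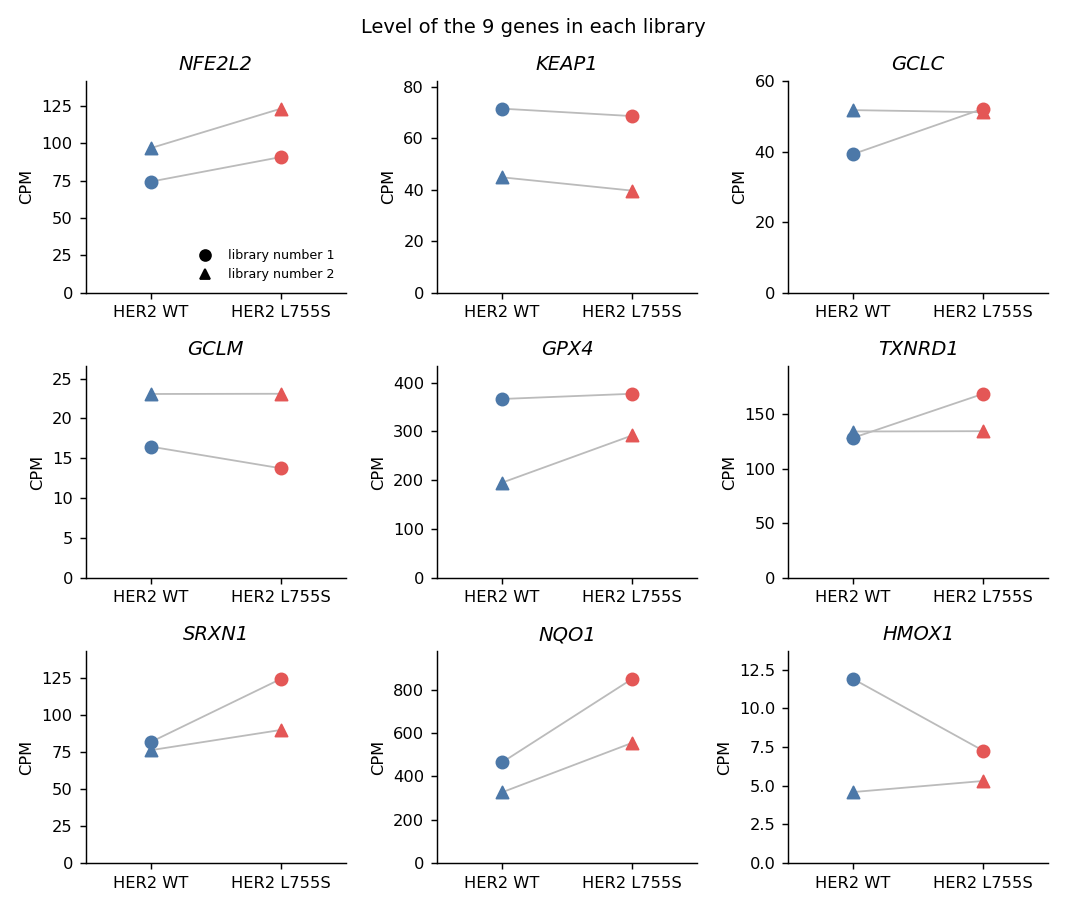
Level of each of the 9 genes in CPM (counts per library size, vertical axis from 0) in HER2 WT (blue) and HER2 L755S (red) libraries. Circles are number 1 libraries, triangles number 2 libraries, and grey lines join libraries of the same number. NQO1 and SRXN1 are higher in both HER2 L755S libraries than in both HER2 WT libraries. NFE2L2, KEAP1, GCLM, GPX4 and HMOX1 are instead split by library number, without overlap of the numbers.

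Per transcript length, the order of the genes was similar in all libraries. GPX4 and NQO1 were the most abundant, at 500 to 846 TPM and 443 to 1105 TPM. KEAP1, NFE2L2, TXNRD1 and SRXN1 followed at 29.8 to 64.8 TPM, and their order among themselves changed from library to library. GCLC (18.5 to 27.6 TPM) ranked the seventh, GCLM (12.9 to 21.6 TPM) the eighth and HMOX1 (3.34 to 9.89 TPM) the ninth in every library. GPX4 ranked above NQO1 in both HER2 WT libraries and below it in both HER2 L755S libraries. The ratio of NQO1 to GPX4 in TPM was 0.763 and 0.886 in HER2 WT 1 and 2, and 1.31 and 1.08 in HER2 L755S 1 and 2.

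The sensor pair had small differences between the lines. NFE2L2 measured 74.2 and 96.7 CPM in the wild-type libraries 1 and 2, against 90.7 and 123 CPM in the L755S libraries. It was higher in HER2 L755S within both numbers, but HER2 WT 2 lay above HER2 L755S 1, so the lines overlapped. The log2 fold change was 0.32 (SE 0.32, 95% interval -0.39 to 1.03), with 0.29 within number 1 and 0.35 within number 2. KEAP1 measured 71.5 and 44.8 CPM in the wild-type libraries 1 and 2, against 68.6 and 39.7 CPM in the L755S libraries. Both number 1 libraries were above both number 2 libraries, and the lines overlapped. Its log2 fold change was -0.10 (SE 0.38, interval -0.94 to 0.73). That of KEAP1 turned to 0.27 without HER2 WT 1 and to 0.22 without HER2 L755S 2. In TPM, the ratio of KEAP1 to NFE2L2 was 1.30 and 0.926 in HER2 WT 1 and 2, and 0.999 and 0.560 in HER2 L755S 1 and 2. Within each number this ratio was lower in HER2 L755S, and across numbers the lines overlapped. The annotated span of NFE2L2 overlaps AGPS on the opposite strand, and the strand setting of the counting was not stated, so their reads may be mixed.

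The subunits of glutamate-cysteine ligase had different profiles over the libraries. GCLC, the catalytic subunit, measured 39.4 and 51.9 CPM in the wild-type libraries 1 and 2, against 52.3 and 51.3 CPM in the L755S libraries. HER2 WT 1 was the low library and the other three were alike, which gave a log2 fold change of 0.18 (SE 0.32, interval -0.53 to 0.90). Without HER2 WT 1 the log2 fold change of GCLC was -0.0025. GCLM, the modifier subunit, which raises the affinity of the enzyme for its substrate, measured 16.5 and 23.1 CPM in the wild-type libraries 1 and 2, against 13.7 and 23.1 CPM in the L755S libraries. Its number 2 libraries were the higher ones, and the log2 fold change was -0.10 (SE 0.38, interval -0.93 to 0.73). It turned to 0.22 without HER2 L755S 1 and to 0.19 without HER2 WT 2. The ratio of GCLC to GCLM in TPM was 1.38 and 1.07 in HER2 WT 1 and 2, and 2.09 and 1.43 in HER2 L755S 1 and 2. These TPM ratios did not overlap between the lines, but in CPM they did. Within number 2, GCLC was slightly lower in the mutant library (51.3 against 51.9 CPM) and GCLM was 23.1 CPM in both. The GCLM transcript length by which TPM divides was 1575 bases in HER2 WT 2 and 2021 bases in HER2 L755S 2. A difference in subunit balance between the lines is therefore not shown by the counts.

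GPX4 measured 367 and 195 CPM in the wild-type libraries 1 and 2, against 377 and 292 CPM in the L755S libraries. HER2 WT 2 was the low library and the lines overlapped. The log2 fold change was 0.25 (SE 0.35, interval -0.53 to 1.03), with 0.04 within number 1 and 0.58 within number 2. Without HER2 WT 2 that of GPX4 was -0.12. GPX4 and TXNRD1 are both selenoproteins, whose messages are read with a selenocysteine at the active site.

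The thiol enzymes of the thioredoxin branch were level or slightly higher in HER2 L755S libraries. TXNRD1, the cytosolic thioredoxin reductase, measured 128 and 134 CPM in the wild-type libraries 1 and 2, against 169 and 134 CPM in the L755S libraries. Only HER2 L755S 1 stood apart. The number 2 libraries differed by 0.0033 on the log2 scale, so that the absence of overlap in CPM (134.1 against 134.5) is not a difference of any size. The log2 fold change of TXNRD1 was 0.21 (SE 0.30, interval -0.46 to 0.87) from counts and -0.025 on the scale of log2(TPM + 1). SRXN1 encodes sulfiredoxin, which restores over-oxidized peroxiredoxins. It measured 81.9 and 76.4 CPM in the wild-type libraries 1 and 2, against 125 and 90.1 CPM in the L755S libraries. The lines did not overlap in CPM, and the log2 fold change was 0.44 (SE 0.32, interval -0.26 to 1.14; edgeR, adjusted p = 0.83). In TPM the lowest SRXN1 value was that of HER2 L755S 2 (36.7 TPM, against 39.1 in HER2 WT 2), so the lines overlapped there. The SRXN1 transcript length was 2698 bases in every library. TPM was used without the scaling between libraries applied to CPM. On log2(TPM + 1) the median log2 fold change of all tested genes was -0.13.

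NQO1 reduces quinones by a transfer of 2 electrons and is often read as a reporter of NRF2 activity. It measured 463 and 325 CPM in the wild-type libraries 1 and 2, against 849 and 554 CPM in the L755S libraries. Both HER2 L755S libraries were above both HER2 WT libraries, and within each line number 1 was above number 2. The means were 394 ± 97.5 and 702 ± 209 CPM (SD, n = 2), a log2 fold change of 0.83 (SE 0.33, interval 0.10 to 1.56; edgeR, unadjusted p = 0.030, adjusted p = 0.36). Within number 1 the difference in NQO1 was 0.87 and within number 2 it was 0.77. In TPM the values of NQO1 were 638 and 443 in the wild-type line and 1105 and 586 in the L755S line. There HER2 WT 1 was above HER2 L755S 2, so the lines overlapped in TPM but not in CPM. As for SRXN1, TPM lacked the scaling of CPM, and the median of all tested genes on log2(TPM + 1) was -0.13.

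HMOX1, the inducible haem oxygenase, was the lowest of the 9 and lay opposite to NQO1 in number 1. It measured 11.9 and 4.58 CPM in the wild-type libraries 1 and 2, against 7.25 and 5.30 CPM in the L755S libraries, from 385, 133, 212 and 136 expected counts. HER2 WT 1 was the high library. The log2 fold change was -0.39 (SE 0.48, interval -1.44 to 0.65), with -0.71 within number 1 and 0.21 within number 2, and it turned to 0.45 without HER2 WT 1.

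**Figure D2:**
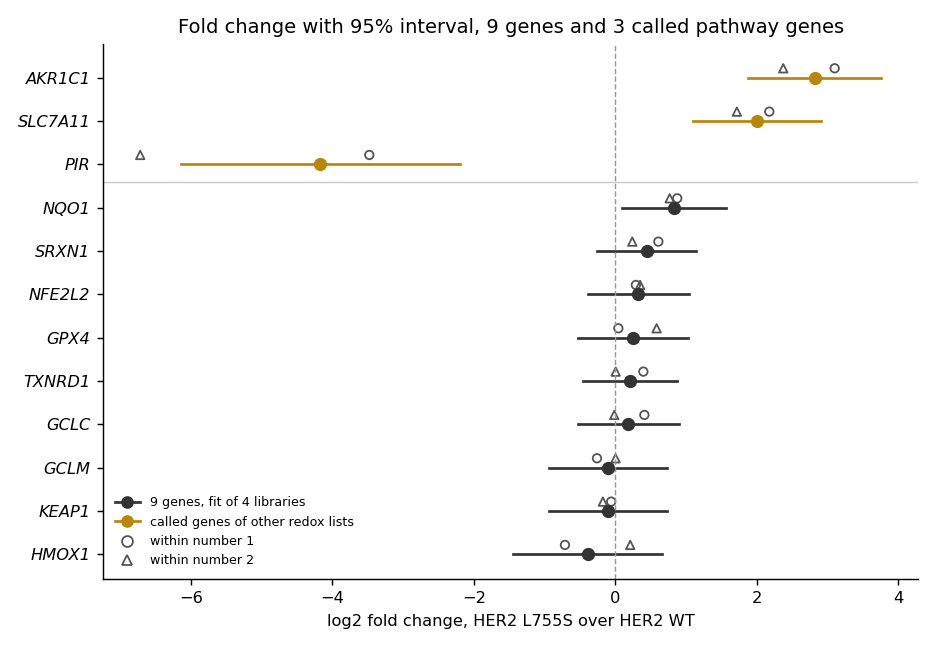
Log2 fold change of HER2 L755S over HER2 WT (horizontal axis) for the 9 genes (black) and the 3 called genes of other redox lists (gold), with 95% intervals from edgeR. Open circles and triangles are differences within number 1 and within number 2. Of the 9 genes, NQO1 alone has an interval that does not reach 0, while AKR1C1, SLC7A11 and PIR lie outside the range of the 9.

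Taken as a list, the 9 genes had a median log2 fold change of 0.21, against 0.0032 over all tested genes, whose interquartile range ran from -0.31 to 0.27. All tested genes include many under 5 CPM, a level that each of the 9 exceeded on average. For protein-coding genes of at least 5 CPM, medians were 0.07 to 0.10 on chromosomes 2, 6, 12, 16, 19 and 20. They were 0.01 on chromosome 22 and -0.18 on chromosome 1. The median size of the difference, regardless of direction, was 0.25 for the 9 genes and 0.29 for all tested genes. Without overlap, 3 of the 9 (NQO1, SRXN1 and TXNRD1) were higher in HER2 L755S, against 16.9% of all tested genes, and 0 were lower, against 19.3% (36.2% in either direction). For TXNRD1 this rests on 134.5 CPM in HER2 L755S 2 against 134.1 CPM in HER2 WT 2, not a difference of any size. Within both numbers 5 of the 9 were higher, against 33.4% of all tested genes, and 1 was lower, against 32.1%. On the scale of log2(TPM + 1) the median of all tested genes moved to -0.13, and the 9 genes had a median of 0.07, which is 0.20 above it.

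For NFE2L2, KEAP1 and GCLM the library numbers differed more than the lines did. For HMOX1 and GPX4 the numbers differed by more than the fitted difference of the lines. In HER2 WT the difference of number 2 from number 1 was -1.37 for HMOX1, -0.91 for GPX4 and -0.67 for KEAP1 on the log2 scale. It was 0.49 for GCLM and 0.38 for NFE2L2. In HER2 L755S it was -0.45, -0.37, -0.79, 0.75 and 0.44 for the same genes. The labels do not say what the number stands for.

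The tables also hold, for each gene, a mean transcript length weighted by the estimated abundance of its transcripts, which the choice of genes did not use. For KEAP1 this length was 2002 and 2090 bases in the number 1 libraries of HER2 WT and HER2 L755S, and 1422 and 1562 bases in their number 2 libraries. The ratio of number 2 to number 1 was 0.710 for the wild-type and 0.747 for the mutant line. Among 11473 genes of at least 5 CPM the median ratio was 0.999 and 1, and 1.42% and 2.52% of genes had a lower ratio than KEAP1. The 10 annotated KEAP1 transcripts run from 451 to 2955 bases. For GCLM the length was 1803 and 1575 bases in HER2 WT 1 and 2 and 1559 and 2021 bases in HER2 L755S 1 and 2, with no order by line or number. SRXN1 has a single annotated transcript of 2698 bases and so no such variation. Because TPM divides by this length, the values of KEAP1, GCLM and GCLC in TPM and in CPM are spaced differently.

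**Figure D3:**
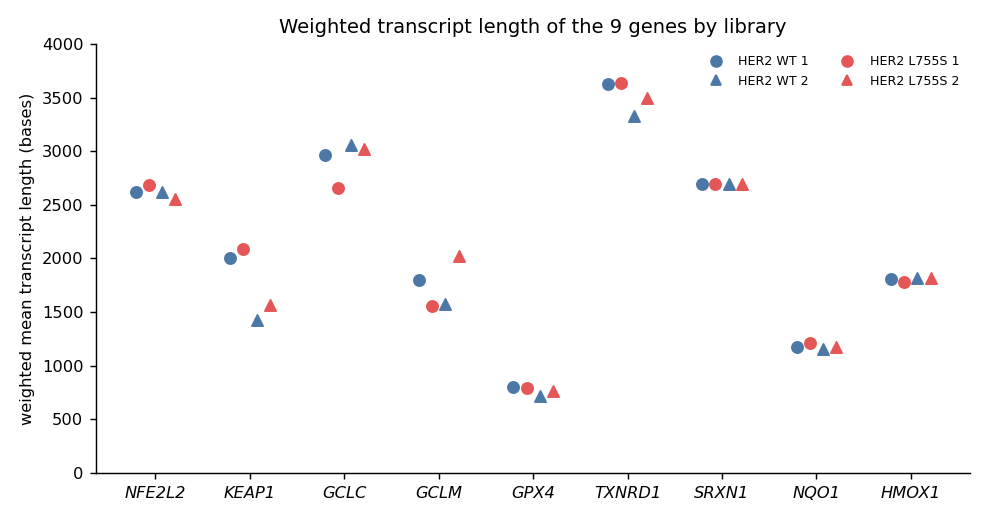
Abundance-weighted mean transcript length in bases (vertical axis from 0) of the 9 genes in each library, HER2 WT in blue and HER2 L755S in red, circles for number 1 and triangles for number 2. The KEAP1 lengths of the number 2 libraries, 1422 and 1562 bases, lie below those of the number 1 libraries, 2002 and 2090 bases.

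The 9 genes lie on 8 chromosomes. The median log2 fold change of the expressed protein-coding genes within 2.5 Mb ran from 0.0074 around GCLM (20 neighbours) to 0.16 around KEAP1 (101 neighbours), and it was 0.03 around NQO1 (67 neighbours). NQO1 lies on chromosome 16 (69706996 to 69726951, GRCh38, minus strand), and KEAP1 and GPX4 both lie on chromosome 19.

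NRF2 binds the antioxidant response element, whose core is TGACNNNGC (GCNNNGTCA on the other strand), and this core was searched on both strands in promoter windows of 300 bases from RefSeq (GRCh38.p14). Entries were matched for 8 of the 9 genes. HMOX1 had no entry, so its promoter was not searched. The core was found in a window of 3 of the 8 (KEAP1, GCLM and TXNRD1), in 4 of 13 windows in all, against 13.3% of 35116 windows of all genes. The matches are shown because NRF2 can bind such letters, each written 5′ to 3′ on the strand of the gene with the core in capitals. The first start of TXNRD1 is shown from 120 bases before to 10 bases after it. The others lie where more than 30 bases of such a stretch are annotated as UTR in GENCODE 29, and there each core is shown with 6 bases on either side.
KEAP1, first match, chr19:10502811-10502831, minus strand: ttattgTGACACGGCgggcgc
KEAP1, second match, chr19:10502788-10502808, minus strand: ggctctGCTTAGTCAtggtga
GCLM, chr1:93909450-93909470, minus strand: atttctGCTTAGTCAttgtct
TXNRD1, first start, chr12:104215659-104215788, plus strand: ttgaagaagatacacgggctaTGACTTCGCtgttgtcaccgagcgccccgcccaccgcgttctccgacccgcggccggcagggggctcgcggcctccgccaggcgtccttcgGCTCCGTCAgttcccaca
TXNRD1, second start, chr12:104286924-104286944, plus strand: atttctGCTTTGTCAttctga
GCLM and the KEAP1 window hold the same letters, GCTTAGTCA, beginning 34 and 31 bases before the start. The window of NQO1 holds no match, which says only that these letters are not in this window. KEAP1, GCLM and TXNRD1, whose windows hold the core, had log2 fold changes of -0.10, -0.10 and 0.21.

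Around the 9 genes, 10 further lists of the redox system held 127 genes, of which 112 were tested. Of these, 2 were called higher (SLC7A11 and AKR1C1) and 1 lower (PIR), against 0.738% and 0.949% of all tested genes. Their median log2 fold change was 0.22, and 81 had a positive and 31 a negative value, against 8325 and 8213 of all tested genes. All tested genes are not matched to the lists in level or gene type. Within both numbers 65 were higher and 20 were lower, against 33.4% and 32.1% of all tested genes. The lists were chosen with earlier results of these data known.

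Among 13 tested genes of glutathione synthesis and turnover, 1 was called. An unadjusted p under 0.05 was found for 5 of them: SLC7A11, CHAC1, GGT6, CTH and GGT5. CTH, of cysteine supply, had a log2 fold change of -1.16 and GGT5 of 0.88 (edgeR, adjusted p = 0.31 and 0.32). SLC7A11, the antiporter that imports cystine for glutathione synthesis, measured 8.56 and 6.16 CPM in the wild-type libraries 1 and 2, against 38.7 and 20.3 CPM in the L755S libraries. The lines were far apart, and SLC7A11 rose by 2.00 on the log2 scale (SE 0.41, edgeR, adjusted p = 0.036), with 2.17 and 1.72 within the numbers. Its call was lost without HER2 L755S 1 (adjusted p = 0.097), without HER2 WT 2 (0.053), with no scaling (0.052) and on TPM (0.17 and 0.20), in a range from 1.5e-05. SLC7A11 has an antisense gene on the opposite strand, SLC7A11-AS1. SLC3A2, the heavy chain with which SLC7A11 pairs, had a log2 fold change of 0.25 and the glutathione synthetase gene GSS 0.60, and neither passed. CHAC1, which degrades glutathione, had 2.05 (SE 0.65, adjusted p = 0.19). GGT6, a gamma-glutamyltransferase gene, had 64 and 14 counts in the wild-type line, against 0 and 3 in the L755S line (adjusted p = 0.082), a ratio of summed counts of 23.3 (95% interval 7.67 to 115, counting error only).

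The list of other NRF2 target genes had 20 tested members and a median log2 fold change of 0.47, with 0.55 within number 1 and 0.37 within number 2. Of them, 18 were higher within both numbers and 2 were lower, against 33.4% and 32.1% of all tested genes. AKR1C1, an aldo-keto reductase that inactivates progesterone, measured 3.553 and 2.996 CPM in the wild-type libraries 1 and 2, against 30.6 and 15.6 CPM in the L755S libraries. AKR1C1 rose by 2.82 on the log2 scale (SE 0.43, edgeR, adjusted p = 0.0077), and it was called under all 14 alternatives, at adjusted p from 2.2e-08 to 0.029. Its close paralog AKR1C2 measured 1.70 and 0.482 CPM, against 13.2 and 3.47 CPM (log2 2.92, adjusted p = 0.072), and reads common to both could have been split by the counting. AKR1C3 had a log2 fold change of 0.72 and AKR1B10 of 2.71 (adjusted p = 0.88 and 0.12). AKR1B10 rested on 7 and 2 counts in the wild-type line, against 34 and 20 in the L755S line. The export pump genes ABCC1, ABCC2 and ABCC3 had 1.01, 2.26 and 0.50 (adjusted p = 0.27, 0.067 and 0.77). The ferritin genes FTL and FTH1, among the most abundant of the list, had 0.43 and 0.05.

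PIR was the called gene of that list that went down. Its counts were 92 and 52 in the wild-type libraries, against 7 and 0 in the L755S libraries. The ratio of summed counts of HER2 WT over HER2 L755S was 18.4 (95% interval 8.70 to 46.6, counting error only; edgeR, adjusted p = 0.044). The fitted log2 fold change of PIR was -4.17 and became -9.08 without HER2 L755S 1, where no count was left in the line and the value depends on the prior count. PIR overlaps BMX on the opposite strand. The start window of PIR on chromosome X holds the core as GCTGAGTCA, beginning 27 bases after the start. PIR is 1 of 4 genes with the core among 14 matched named genes outside the 9. Some of these genes have several windows, so this count by gene is not comparable with the 13.3% of all windows that hold it. The AKR1C1 window does not hold the core.

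**Figure D4:**
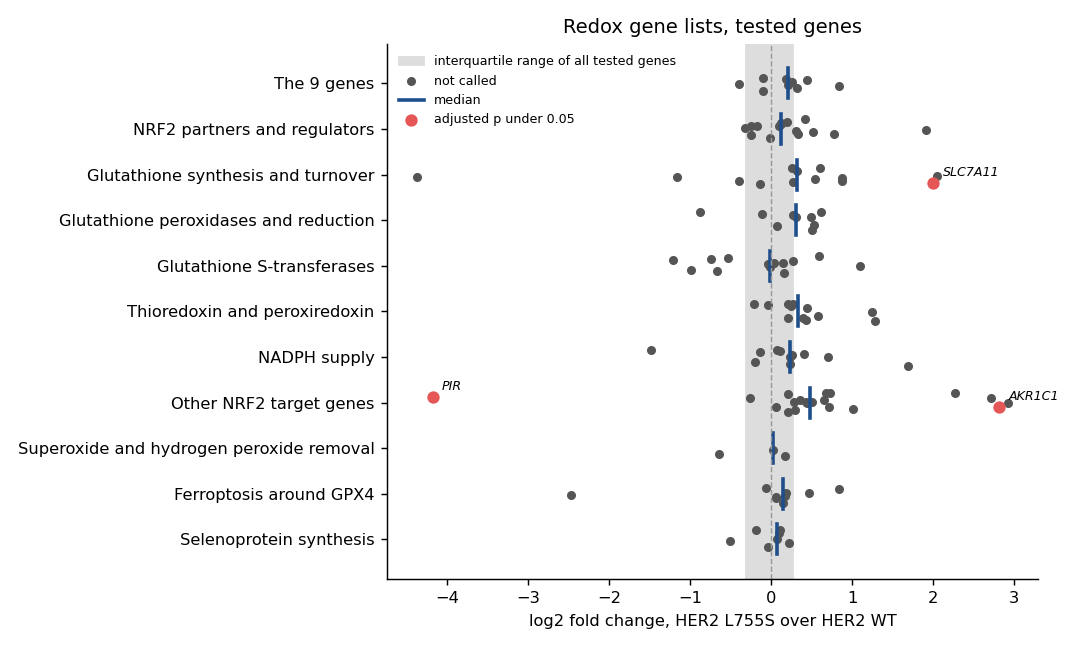
Log2 fold change of HER2 L755S over HER2 WT (horizontal axis) of each tested gene in the 9-gene list and in 10 further redox lists, scattered vertically within a list for visibility. Red points are genes called at an adjusted p under 0.05, blue bars are list medians, and the grey band is the interquartile range of all tested genes, from -0.31 to 0.27. The 3 red points are SLC7A11, AKR1C1 and PIR.

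None of the 15 tested partners and regulators of NRF2 was called by edgeR without a replicate block (2 had an unadjusted p under 0.05, SQSTM1 and BACH2). SQSTM1, which encodes p62, an adaptor that can sequester KEAP1, measured 214 and 146 CPM in the wild-type libraries 1 and 2, against 384 and 231 CPM in the L755S libraries (log2 0.77, SE 0.35, adjusted p = 0.47). BACH2, a repressor at the same DNA elements, had 9 and 17 counts in the wild-type line, against 45 and 44 in the L755S line (log2 1.91, adjusted p = 0.20), and its relative BACH1 had -0.18. The small MAF genes MAFF, MAFG and MAFK had 0.09, 0.30 and 0.12. CUL3 and RBX1, of the ligase that KEAP1 serves, had 0.12 and 0.52, and that of RBX1 was -0.061 without HER2 L755S 2.

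The enzymes that use or regenerate glutathione and thioredoxin gave no called gene in edgeR without a replicate block. Of 9 tested genes of glutathione peroxidases and reduction, 0 had an unadjusted p under 0.05. The glutathione reductase gene GSR measured 91.3 and 102 CPM in the wild-type libraries 1 and 2, against 142 and 131 CPM in the L755S libraries (log2 0.50, adjusted p = 0.72). GPX8 had 0.61 (adjusted p = 0.76) and GPX1 0.30. Of 13 tested glutathione S-transferases, 2 had an unadjusted p under 0.05, GSTZ1 at 1.10 and GSTM2 at -0.99 (adjusted p = 0.21 and 0.35). GSTM1 and GSTM3, the most abundant transferases in TPM, had -0.75 and -0.67, and GSTM1 measured 692 and 529 CPM in the wild-type line, against 467 and 261 CPM in the L755S line. GSTM genes are close paralogs that can share reads. GSTP1 had at most 1 count in a library and was not tested.

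Of 12 tested genes of the thioredoxin and peroxiredoxin list, 10 had positive values and 0 were called, with 2 at an unadjusted p under 0.05. These were the sestrin genes SESN1 and SESN3, at log2 1.24 and 1.28 (adjusted p = 0.13 and 0.22). SESN1 was called with DESeq2 and with no filter (adjusted p = 0.029 and 0.048), and SESN3 with no filter and without HER2 L755S 1 (0.036 and 0.016). A fit with the replicate number as a block called both (edgeR, adjusted p = 0.00066 for SESN1 and 0.00095 for SESN3). The peroxiredoxin genes ran from -0.21 for PRDX6 to 0.43 for PRDX3, and thioredoxin, TXN, had 0.44. Of 11 tested genes of NADPH supply, 0 were called, with 2 at an unadjusted p under 0.05. IDH1 had 0.70 (adjusted p = 0.44), while PGD, TKT and TALDO1 had 0.08, 0.26 and -0.20.

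The profile of each of the 9 genes over the 4 libraries was set against those of 11472 other genes of at least 5 CPM, by the root mean square difference of centred log2 CPM. Among the redox lists, the gene nearest to NQO1 was SQSTM1, at 0.06 and the sixth nearest of all genes. FTL was the nearest to SRXN1, at 0.04 and rank 8, and UGDH to GCLC, at 0.04 and rank 28. GPX3 was the nearest to HMOX1, at 0.13 and rank 48, and TXNRD2 to GPX4, at 0.08 and rank 79. The nearest gene of the lists was EEFSEC for KEAP1 at rank 59, GSTK1 for TXNRD1 at rank 101, CUL3 for GCLM at rank 350 and PSTK for NFE2L2 at rank 367. With 4 libraries many profiles are alike: 433 genes lay within 0.25 of NQO1 and 3740 within 0.25 of GCLC. The nearest gene was picked from lists with 112 tested genes outside the 9. Ranks for other lists of that size were not computed.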

How the data were processed

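The genes and lists were chosen with earlier results of these data known. RNA of 4 samples, 2 per line, was used; 250 ng of each went into poly(A)-selected TruSeq libraries read on a NovaSeq, per the labels' protocols. STAR, edgeR and GRCh38 are named in the submitters' processing notes, with no version or role. Per the file headers, the authors deposited RSEM gene tables with an expected count, TPM and FPKM per gene, and FPKM was not used. The word merged stands in the names of both number 2 tables, and what was merged is not stated. RSEM shares ambiguous reads out over the genes they match, which bears on paralogs. The annotation release and strand setting are not given in the sources used here.

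Expected counts were rounded, filtered with filterByExpr, scaled with TMM (factors 0.937 to 1.04) and compared, HER2 L755S over HER2 WT, with edgeR 4.0.16 (glmQLFit, glmQLFTest, two-sided) in R 4.3.3, with Benjamini-Hochberg adjustment over all tested genes. CPM values use TMM-scaled totals. Values within a number are differences of log2 CPM (prior count 0.5). Intervals of 95% are unadjusted. The named genes are the 9 genes and, from each other list, the called genes or else up to 2 of smallest p with at least 5 CPM in the higher line; other names were chosen after their values were seen. One gene that this rule names is not reported here. Positions are from GENCODE 29 (GRCh38), in which 16426 tested genes were found by identifier. The test was checked on simulated counts. It recovered 12% of 50 genes changed 2-fold and 86% of 50 genes changed 4-fold, with 12 false calls among 160. Most 2-fold differences would thus go uncalled. Alternatives were DESeq2 1.42.0 or its size factors, no scaling, limma 3.58.1 (voom, or log2 TPM with pseudocounts of 1 and 0.1), other filters, a replicate block, an adjusted p of 0.01, leaving out each library and, added after the data were seen, no mitochondrial genes.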

Additional observations from a re-analysis of the deposited data

How the results depend on the processing

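The count of 0 called among the 9 genes held under every alternative except the replicate block, which called 1 of 9: NQO1, at a log2 fold change of 0.82 (edgeR, adjusted p = 0.013). Of the other genes named, the block also called SQSTM1, GSTZ1, GSTM2, IDH1, GCH1 and CAT (adjusted p = 0.017, 0.0042, 0.0081, 0.019, 0.011 and 0.034), besides SESN1 and SESN3 (0.00066 and 0.00095). NFE2L2, NQO1 and SRXN1 kept a positive value under all 14 alternatives. The 279 calls over all genes became 585 with DESeq2, 759 with no filter, 1743 with the replicate block and 98 at an adjusted p of 0.01, and ran from 342 to 543 when 1 library was left out (543 without HER2 L755S 1, 426 without HER2 L755S 2). A line left with 1 library was assumed to vary like the other. Leaving out 1 library gave -0.55 to 0.27 for KEAP1, -0.0025 to 0.41 for GCLC, -0.54 to 0.22 for GCLM, -0.91 to 0.45 for HMOX1, -0.12 to 0.78 for GPX4 and -0.061 to 0.93 for RBX1, so their signs rest on single libraries; the cause was not tested. On log2(TPM + 1) and log2(TPM + 0.1), where the median of all genes moved to -0.13 and -0.17, TXNRD1 had -0.0245 and -0.0255, SOD1 -0.0053 on both, and PSTK -0.13 and -0.14. The labels do not say what the replicate number pairs. The differences of number 1 from number 2 in the lines had a correlation of 0.42 across 16538 genes and 0.65 across the 11473 genes of at least 5 CPM, which are not independent replicates. With 2 libraries a line and no replicate block, the intervals leave differences of about 2-fold unresolved for some of the 9 genes. They reached 2.05 times for NFE2L2, 2.04 for GPX4 and 2.20 for SRXN1, and down to 0.368 times for HMOX1.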

Other observations

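Of 3 tested genes of superoxide and hydrogen peroxide removal, 0 were called by edgeR without a replicate block, and 0 had an unadjusted p under 0.05. Catalase, CAT, measured 102 and 127 CPM in the wild-type libraries 1 and 2, against 70.2 and 76.7 CPM in the L755S libraries (log2 -0.65, SE 0.31, adjusted p = 0.52). CAT lies on chromosome 11 (34438925 to 34472062), and the 23 expressed protein-coding genes within 2.5 Mb of it had a median of -0.66; the part of this shift in the value of CAT was not tested. The dismutase genes SOD1 and SOD2 had 0.17 and 0.02.

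Of 9 tested genes of ferroptosis outside GPX4, 0 were called by edgeR without a replicate block and 2 had an unadjusted p under 0.05. GCH1, which makes the antioxidant cofactor tetrahydrobiopterin, measured 15.97 and 17.29 CPM in the wild-type libraries 1 and 2, against 27.1 and 32.3 CPM in the L755S libraries (log2 0.83, adjusted p = 0.35). The lipoxygenase gene ALOX5 had -2.47 at 1.2 CPM or less (adjusted p = 0.15), and DHODH had 0.47. ACSL4, which supplies the polyunsaturated lipids that peroxidize, had 0.17, and AIFM2, which encodes the ferroptosis suppressor FSP1, had 0.14.

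The 7 tested genes of selenoprotein synthesis ran from -0.51 for TRNAU1AP to 0.22 for PSTK, with 0 called by edgeR and 0 at an unadjusted p under 0.05. TRNAU1AP lies on chromosome 1, where 51 neighbours within 2.5 Mb had a median of -0.25.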
